A study of Mus musculus with 12 samples.

Results

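The comparison set fat grafts given added ASC together with Dll4 inhibition (the CAL_Dll4i group) against control fat grafts, and its members were the 4 libraries of each of those groups, 8 of the 12 libraries of the series. They were taken by their sample labels, and the comparison was chosen with earlier results of these data known. All genes were compared, 18551 of the 19547 in the table passing a filter on low counts. Both groups were adipose tissue from wild type C57BL/6 mice aged 16 weeks, taken at 8 weeks of grafting. Controls were grafts of fat alone as far as the labels say, and CAL_Dll4i grafts carried ASC plus the inhibition, ASC being in common use for stem cells derived from adipose tissue. CAL, which stands for cell-assisted lipotransfer, is the remaining group of 4 libraries and received ASC without the inhibition. The labels do not give how Dll4 was inhibited, the source of the ASC, the graft site, the sex of the mice or how many animals went into a library. Grafts with the inhibition but without ASC were not analysed here, so what ASC and the inhibition each add cannot be told apart in this contrast. CAL values are set beside it for part of the genes and lists. Since the labels do not tie libraries to animals, the p-values reflect the spread among these libraries, which may be partly technical.

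Fat grafting moves adipose tissue to a new site, where it first lacks a blood supply and part of it is lost before vessels grow in. Dll4 is a ligand of the Notch pathway on endothelial cells: when it binds Notch1 on a neighbouring cell it switches on genes such as Hes1, Hey1 and Nrarp and holds back the formation of sprouting tip cells. Blocking Dll4 is known to increase sprouting in growing vessels, and ASC are known as a source of growth factors and of stromal and mural cells.

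Total counts ran from 58360276 to 70804141 in the 8 libraries, and correlations across genes were 0.974 to 0.989 for the 12 library pairs of the same group and 0.969 to 0.989 for the 16 mixed pairs. Genes are not independent replicates in these correlations. All 22 adipocyte markers were detected, and Fabp4, the fatty acid binding protein of fat cells, stood at 337 to 528 CPM (counts scaled to the same library total) over the 8 libraries. Some libraries stood apart. CAL_Dll4i replicate 3 held skeletal muscle RNA: the 11 measured muscle genes summed to 7084 CPM there, to 165 to 283 CPM in CAL_Dll4i replicates 1, 2 and 4 and to 84.3 to 254 CPM in the controls. CAL replicates 1 and 2 held it too, at 2657 and 4570 CPM. Keratinocyte genes, 9 of them, summed to 567 CPM in CAL_Dll4i replicate 1, to 162 to 281 CPM in replicates 2 and 4 of both groups and to 13.9 to 31.95 CPM in the other 3. Red cell genes, 7 of them, summed to 1099 and 1401 CPM in control replicates 1 and 3 and to 321 to 534 CPM in the remaining 6.

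No gene passed edgeR's quasi-likelihood test at a Benjamini-Hochberg adjusted p under 0.05, in either direction (0 of 18551, 0% called higher and 0% called lower). The smallest adjusted p was 0.458. Without adjustment, 716 genes (3.86%) were higher and 568 (3.06%) lower in CAL_Dll4i at p under 0.05 by edgeR. This split moved to 870 higher and 436 lower with upper-quartile scaling. All 4 CAL_Dll4i libraries lay above all 4 controls for 448 genes (2.41%) and below them for 436 (2.35%), 4.77% of genes in all. Estimates were above 0 for 49.6% of genes and below 0 for 50.4%. DESeq2, run as an alternative, called 50 genes higher (0.27%) and 11 lower (0.0593%). By limma's voom, weighting samples, 0 genes passed and 2300 (12.4%) had an unadjusted p under 0.05. In the same edgeR fit CAL against control called 1 gene (0.00539%), where 2705 (14.6%) had an unadjusted p under 0.05, and CAL_Dll4i against CAL called 0, where 1377 (7.42%) had an unadjusted p under 0.05. Every difference below is therefore given as an estimate that edgeR did not pass, and the DESeq2 call is added where there was one. Counts of list members at an unadjusted p under 0.05 stand beside 3.86% higher and 3.06% lower over all genes.

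Of the 61 genes called by DESeq2, 36 were protein-coding (25 higher, 11 lower) and 9 were small nuclear RNA genes, all 9 higher. Of the 18551 genes tested, 14782 were protein-coding and 41 were small nuclear RNA genes. Protein-coding genes were thus a smaller part of the calls than of the genes tested, and small nuclear RNA genes a larger part. Of the 9, 5 were U1 and 3 were U2 spliceosomal RNA genes, whose copies share sequence. The named genes with the smallest p on the higher side were small structural RNAs, mitochondrial messages, a homeobox gene, a retinoic acid receptor and an X-linked long RNA. On the lower side they were a killer cell protease, an ADP receptor, an X-linked membrane protein and a collagen.

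Small structural RNAs were among the higher genes with small p. The libraries were made with an exome-capture RNA kit whose targets are not known here. How far counts of such RNAs follow their levels in the grafts was not tested. 7SL is the RNA of the signal recognition particle, which brings ribosomes to the endoplasmic reticulum, and the table lists it as Rn7s1 and Rn7s2. In the GENCODE annotation of GRCm38 these rows are identical at 300 of 300 bases, so reads cannot be assigned to either and they make 1 measurement. U1, the RNA of the spliceosome that pairs with the start of an intron, is shown for the spliceosomal RNAs described next, as Rnu1a1 (chr11:87422867-87423030, plus strand), with bases 3 to 11, which pair with the splice site, in capitals. It is printed as DNA letters from the annotation's transcripts, 5′ to 3′.
Rnu1a1: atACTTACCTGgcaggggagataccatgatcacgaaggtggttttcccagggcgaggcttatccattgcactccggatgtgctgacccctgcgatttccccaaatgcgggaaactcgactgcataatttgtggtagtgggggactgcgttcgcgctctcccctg
7SL stood at 58.9, 65.9, 29.5 and 52.3 CPM in control replicates 1 to 4 and at 236, 126, 131 and 215 CPM in CAL_Dll4i replicates 1 to 4. The groups did not overlap, and the lowest CAL_Dll4i library was higher than the highest control. The estimate was 1.78 ± 0.31 (log2 fold change ± SE), 3.43-fold, with DESeq2 adjusted p = 1.37e-06. CAL libraries averaged 128 ± 36.5 CPM (mean ± SD, n = 4).

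Rn7sk, the 7SK RNA that holds the transcription elongation factor P-TEFb inactive, stood at 71.8, 85.9, 42.8 and 82.3 CPM in control, against 168, 134, 132 and 223 CPM in CAL_Dll4i (1.22 ± 0.23 on the log2 scale, DESeq2 adjusted p = 9.77e-05). Rpph1, the RNA of ribonuclease P, stood at 105, 93.2, 73.7 and 112 CPM in control, against 161, 139.9, 159 and 180.3 CPM in CAL_Dll4i (0.74 ± 0.15, DESeq2 adjusted p = 0.00297). In both genes every CAL_Dll4i library was above every control, and the control values were lowest in replicate 3. CAL averaged 109 ± 15.3 CPM for Rn7sk and 134 ± 26.05 CPM for Rpph1. Rnu1a1 stood at 14.8, 15.3, 12.3 and 17.1 CPM in control, against 19.7, 20.7, 20.95 and 25.3 CPM in CAL_Dll4i (0.54 ± 0.13, DESeq2 adjusted p = 0.0305) without overlap; Tex14 overlaps it, and it was singled out after its values were seen. Of 20 U1 genes 16 had higher estimates, 11 of them at an unadjusted p under 0.05 (median 0.41), and of 9 U2 genes all had, 8 of them at that level (median 1.00). Copies of U1 and U2 share sequence, so these rows are not separate measurements. Over all 41 small nuclear RNA genes tested, 25 (61%) were higher at an unadjusted p under 0.05 and 0 lower, beside 3.86% of all genes.

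The share of counts on 18S ribosomal RNA is set beside these transcripts. It was 4.84, 5.51, 3.76 and 4.05% of the counts in control replicates 1 to 4 and 8.53, 5.26, 6.01 and 6.96% in CAL_Dll4i replicates 1 to 4, or 4.54 ± 0.792% and 6.69 ± 1.41% (mean ± SD, n = 4 each). The groups overlapped at control replicate 2. With 70 ways to arrange 8 libraries, an exact permutation test (two-sided) gave p = 0.0571, and 0.0286 is the smallest p it can reach. In the CAL libraries it was 3.48 to 5.87%. A list of 9 rows, the 18S gene, Rn7sk, both 7SL rows, Rpph1, Rmrp, the long nuclear RNAs Malat1 and Neat1 and the tRNA synthetase gene Lars2, had higher estimates throughout (median 0.62) and an unadjusted p under 0.05 in all 9. With the 18S share as a covariate the median was 0.44 and 5 of the 9 had an unadjusted p under 0.05. The 18S gene is itself among the 9, so its own result under this covariate was fixed in advance. Both 7SL rows are a single measurement, so neither count is of separate measurements.

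**Figure D1:**
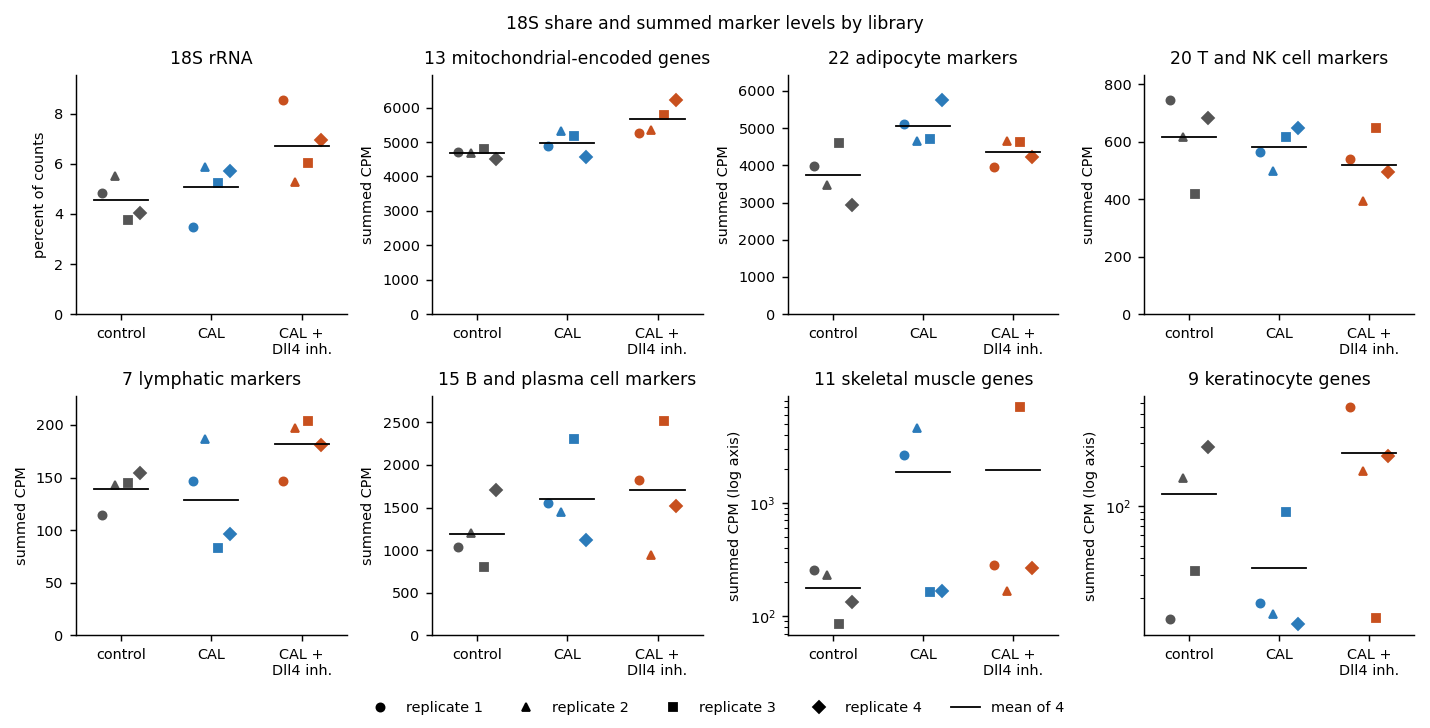
Each point is 1 library, with the share of counts on 18S rRNA (percent) or the summed CPM of a gene list on the vertical axis, for the 3 groups; black lines are means of 4 libraries, and the last 2 panels have log axes. The mitochondrial-encoded sum was higher in every CAL_Dll4i library (5264 to 6216 CPM) than in every control (4518 to 4790 CPM), while muscle genes reached 7084 CPM in CAL_Dll4i replicate 3 alone of its group.

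Messages encoded by the mitochondrial genome had higher estimates throughout. All 13 protein genes of mitochondrial DNA had higher estimates and an unadjusted p under 0.05, with a median of 0.27 against 0.00 over all genes, and 12 of the 13 lay higher without overlap (2.41% of all genes did). DESeq2 called 4 of them (0.27% of all genes were called higher), among them ND1, ND4 and COX1. The summed level was 4723, 4696, 4790 and 4518 CPM in control replicates 1 to 4, 4876, 5329, 5168 and 4559 CPM in CAL and 5264, 5354, 5793 and 6216 CPM in CAL_Dll4i. The genes are cut from shared transcripts, so the 13 are not separate measurements.

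ND1, a subunit of respiratory complex I, stood at 477, 476, 488 and 461 CPM in control, against 556, 556, 589.8 and 625 CPM in CAL_Dll4i (0.29 ± 0.05 on the log2 scale, DESeq2 adjusted p = 0.00123). It lies at 2751 to 3707 of the mitochondrial chromosome. ND4, of the same complex, went from 467 ± 11.95 to 576 ± 46.6 CPM (mean ± SD, n = 4 each, 0.30 ± 0.06, DESeq2 adjusted p = 0.0108). COX1, the catalytic subunit of complex IV, went from 1103 ± 28.4 to 1354 ± 94.6 CPM (0.30 ± 0.06, DESeq2 adjusted p = 0.00919). Estimates of the 13 ran from 0.20 for ND5 to 0.46 for ND6, which overlaps ND5 on the other strand, both named after their values were seen. With the 18S share as a covariate the median was 0.28 and 10 of the 13 kept an unadjusted p under 0.05. Leaving out any of the 8 libraries gave medians of 0.22 to 0.31.

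The nuclear genes of the same machinery did not share the pattern. Of 20 nuclear oxidative phosphorylation genes 8 had higher and 12 lower estimates (median -0.01), and the 1 with an unadjusted p under 0.05 was Atp5a1, a subunit of the ATP synthase, at 309.8, 288, 305 and 293 CPM in control, against 329, 323, 329 and 315 CPM in CAL_Dll4i (0.12 ± 0.05). The difference between the mitochondrial and the nuclear list was not tested. Of 18 fatty acid oxidation genes 11 were higher and 7 lower (median 0.03, of either sign over the libraries left out in turn), none at an unadjusted p under 0.05.

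**Figure D2:**
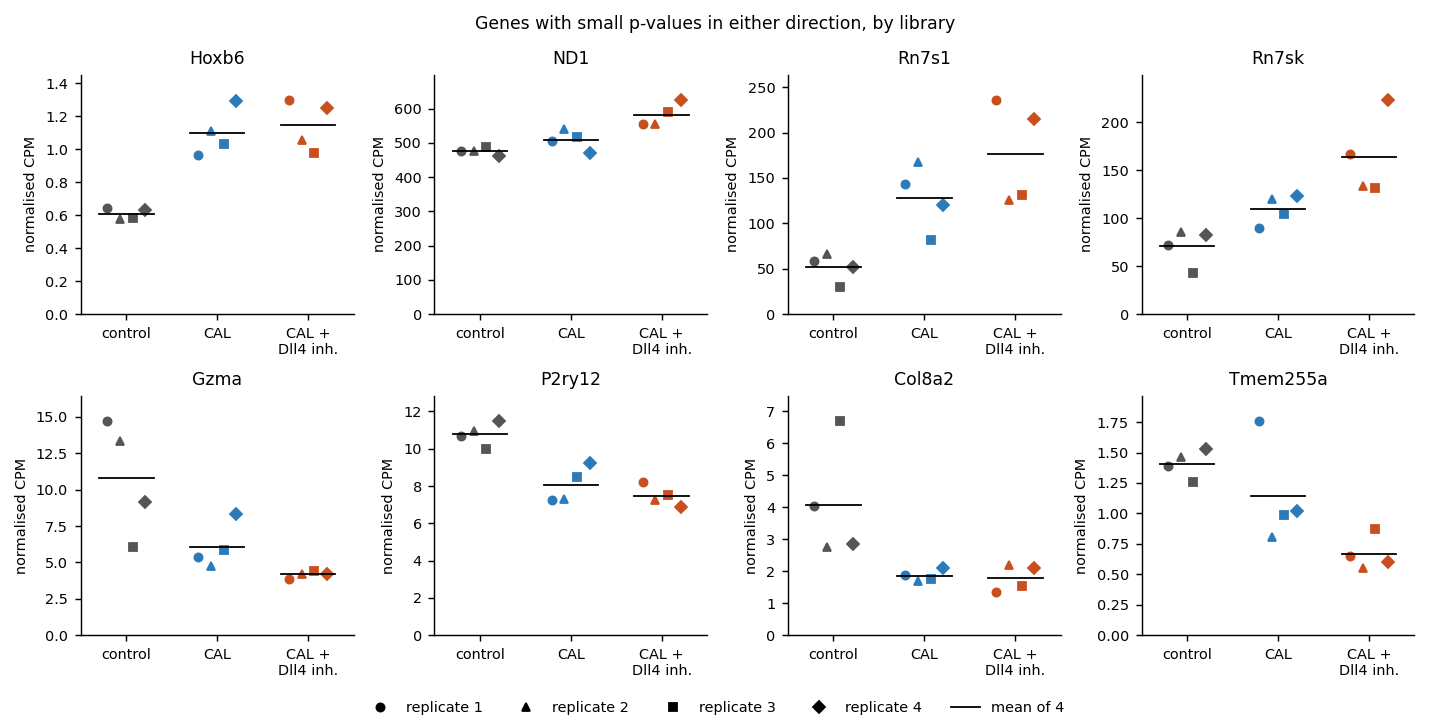
Each point is 1 library, with normalised CPM on the vertical axis for 8 genes with small p-values, in the control, CAL and CAL_Dll4i groups; black lines are means of 4 libraries. Every CAL_Dll4i library lies above every control for Hoxb6, ND1, Rn7s1 and Rn7sk and below every control for Gzma, P2ry12, Col8a2 and Tmem255a.

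Among other genes with small p on the higher side, 2 encode regulators of position and retinoid response. Hoxb6, a homeobox transcription factor, stood at 0.642, 0.578, 0.585 and 0.631 CPM in control, against 1.298, 1.06, 0.9802 and 1.25 CPM in CAL_Dll4i (0.91 ± 0.16, 1.88-fold, DESeq2 adjusted p = 0.0147), and CAL libraries averaged 1.101 ± 0.142 CPM. Its CAL minus control estimate from the same fit, which shares the control libraries, was 0.85 ± 0.16. The antisense gene Hoxb5os overlaps it, and the strand setting of the counting is not known here. Rarb, a retinoic acid receptor, stood at 0.929, 0.594, 0.885 and 0.9397 CPM in control, against 1.43, 1.43, 2.15 and 1.55 CPM in CAL_Dll4i (0.97 ± 0.20, DESeq2 adjusted p = 0.0167) without overlap. CAL averaged 1.33 ± 0.184 CPM for Rarb.

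Homeobox cluster genes were grouped after seeing their values. Of 26 tested, 21 had higher estimates and 7 of these an unadjusted p under 0.05 (median 0.31; CAL minus control 0.51). With a filter at 1 CPM in 4 libraries 15 were tested, with a median of 0.14 and 3 at that level, and with the muscle score as a covariate the median was 0.19 with 3. The count was 4 without control replicate 4 or CAL_Dll4i replicate 1 or 3. DESeq2 called Hoxb6 and Hoxc6, the latter at 4.85, 5.89, 4.996 and 3.32 CPM in control, against 8.496, 9.43, 9.897 and 7.11 CPM in CAL_Dll4i. In both genes the groups did not overlap and CAL averaged close to CAL_Dll4i, at 9.37 ± 2.61 CPM for Hoxc6.

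Xist, the long RNA that silences an X chromosome, stood at 30.3, 34.01, 34.02 and 23.8 CPM in control, against 59.8, 39.5, 48.4 and 51.04 CPM in CAL_Dll4i (0.70 ± 0.14, DESeq2 adjusted p = 0.0051). It was detected in all 8 libraries, and Tsix overlaps it on the opposite strand. CAL averaged 43.8 ± 5.15 CPM for Xist. Long noncoding RNAs were more often higher than lower: of 1207 tested, 852 had higher estimates (median 0.15) and 84 (6.96%) were higher at an unadjusted p under 0.05. For protein-coding genes these values were 6888 of 14782 (median -0.01) and 496 (3.36%). The part of the exome-capture kit in the counts of long noncoding RNAs was not tested.

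A further pair of protein-coding genes that DESeq2 called higher was picked with its values in view. Npy1r, a receptor of neuropeptide Y, stood at 2.48, 5.297, 5.45 and 6.96 CPM in control, against 10.8, 10.1, 9.41 and 12.4 CPM in CAL_Dll4i (1.08 ± 0.24, DESeq2 adjusted p = 0.00596). Vtn, the adhesive serum protein vitronectin, stood at 2.37, 4.22, 5.99 and 5.12 CPM in control, against 13.5, 12.8, 10.2 and 8.802 CPM in CAL_Dll4i (1.35 ± 0.31, DESeq2 adjusted p = 0.00596). In both, the lowest CAL_Dll4i library was above the highest control, and CAL averaged 7.76 ± 0.509 and 12.1 ± 4.15 CPM.

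Gzma had the smallest p among lower genes. It encodes granzyme A, a protease of cytotoxic T and natural killer cells, and lies on chromosome 13 at 113093824 to 113100981. It stood at 14.7, 13.3, 6.06 and 9.15 CPM in control replicates 1 to 4 and at 3.89, 4.19, 4.41 and 4.24 CPM in CAL_Dll4i replicates 1 to 4, without overlap. The CAL_Dll4i libraries lay close together and the controls were spread. The estimate was -1.37 ± 0.25, 2.58-fold lower, with DESeq2 adjusted p = 0.000337, and CAL averaged 6.07 ± 1.58 CPM. Cdc20b overlaps it.

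P2ry12, an ADP receptor of platelets and of resident macrophages, stood at 10.7, 10.96, 10.01 and 11.5 CPM in control, against 8.195, 7.24, 7.53 and 6.89 CPM in CAL_Dll4i (-0.53 ± 0.10, DESeq2 adjusted p = 0.000944); Med12l overlaps it, so part of its counts is uncertain. Tmem255a, an X-linked membrane protein gene, stood at 1.39, 1.46, 1.26 and 1.53 CPM in control, against 0.649, 0.551, 0.8695 and 0.604 CPM in CAL_Dll4i (-1.07 ± 0.24, DESeq2 adjusted p = 0.0357). CAL averaged 8.065 ± 0.964 CPM for P2ry12 and 1.14 ± 0.419 CPM for Tmem255a, each between the groups. Ecrg4, a secreted peptide precursor, stood at 5.51, 4.64, 13.2 and 6.49 CPM in control, against 2.85, 3.34, 2.31 and 3.72 CPM in CAL_Dll4i (-1.29 ± 0.30, DESeq2 adjusted p = 0.02), with control replicate 3 highest. CAL averaged 2.05 ± 0.438 CPM for Ecrg4. Other lower estimates without overlap were those of Camk4, a calcium-dependent kinase (-0.73 ± 0.17), Aff2 (-0.44 ± 0.11), Car2, a carbonic anhydrase (-0.67 ± 0.17), and Pdk3, a kinase that inhibits pyruvate dehydrogenase (-0.25 ± 0.06). In that order, CAL minus control gave -0.66 ± 0.17, -0.51 ± 0.11, -0.53 ± 0.17 and -0.19 ± 0.06, from the same controls. DESeq2 called these 4, and did not call Hccs, which attaches heme to cytochrome c (-0.28 ± 0.07, DESeq2 adjusted p = 0.0598). Like Tmem255a, the genes Aff2, Pdk3 and Hccs lie on the X chromosome. Whether X-linked genes were lower more often than others was not tested.

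Dll4, the ligand that was inhibited, had lower RNA levels in CAL_Dll4i than in control. It stood at 5.53, 5.68, 6.95 and 4.97 CPM in control, against 4.95, 3.98, 4.35 and 4.39 CPM in CAL_Dll4i, without overlap, and at 3.72 ± 0.536 CPM in CAL. The estimate was -0.39 ± 0.14, with edgeR adjusted p = 0.714 and DESeq2 adjusted p = 0.383, so it passed neither. An agent that blocks the protein need not change its RNA, so this level does not check the treatment. Gm14207 overlaps Dll4.

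Notch ligands and receptors gave no shared direction. Of 8 tested, Dll4 included, 4 had higher and 4 lower estimates (median 0.00, of either sign depending on the setting), and the 1 with an unadjusted p under 0.05 was Dll4. The ligand Dll1 stood at 1.77, 3.24, 1.61 and 2.71 CPM in control, against 3.35, 3.28, 2.44 and 3.84 CPM in CAL_Dll4i (0.47 ± 0.25), and Jag2 at 1.77, 2.34, 2.28 and 3.62 CPM in control, against 3.37, 2.57, 2.56 and 4.02 CPM in CAL_Dll4i (0.32 ± 0.25); in both the groups overlapped. Jag1 stood at 104, 116, 162 and 114 CPM in control, against 139, 127, 83.3 and 133 CPM in CAL_Dll4i (-0.04 ± 0.20), with the highest value in control replicate 3 and the lowest in CAL_Dll4i replicate 3. The receptors Notch1, expressed in many cells, and Notch4, mostly endothelial, stood at 129.8 ± 9.05 CPM in control and 122 ± 11.4 CPM in CAL_Dll4i and at 12.2 ± 1.14 CPM in control and 11.2 ± 1.84 CPM in CAL_Dll4i (mean ± SD, n = 4 each).

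Of 13 Notch targets and nuclear effectors 9 had higher and 4 lower estimates (median 0.06), and 0 had an unadjusted p under 0.05 by edgeR. Hes1, a repressor switched on by Notch, stood at 6.08, 6.92, 8.58 and 5.98 CPM in control, against 8.995, 9.32, 6.15 and 6.59 CPM in CAL_Dll4i (0.17 ± 0.16). Hey1, a related repressor of arterial endothelium, stood at 1.71, 1.01, 1.46 and 1.75 CPM in control, against 1.83, 1.72, 1.58 and 2.02 CPM in CAL_Dll4i (0.27 ± 0.20). Nrarp, which feeds back on the pathway, stood at 7.49, 8.54, 7.46 and 8.94 CPM in control, against 11.9, 5.76, 7.67 and 8.48 CPM in CAL_Dll4i (0.06 ± 0.20), and CAL_Dll4i replicate 1 held the highest value. Efnb2, the arterial ephrin, stood at 7.59, 8.04, 13.6 and 8.32 CPM in control, against 9.42, 9.13, 6.83 and 9.24 CPM in CAL_Dll4i (-0.12 ± 0.20). In all 4 genes the groups overlapped, and none of them had an unadjusted p under 0.05 by edgeR. In CAL, Hes1, Nrarp and Efnb2 averaged 5.22 ± 0.333, 5.68 ± 1.16 and 5.34 ± 1.11 CPM.

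**Figure D3:**
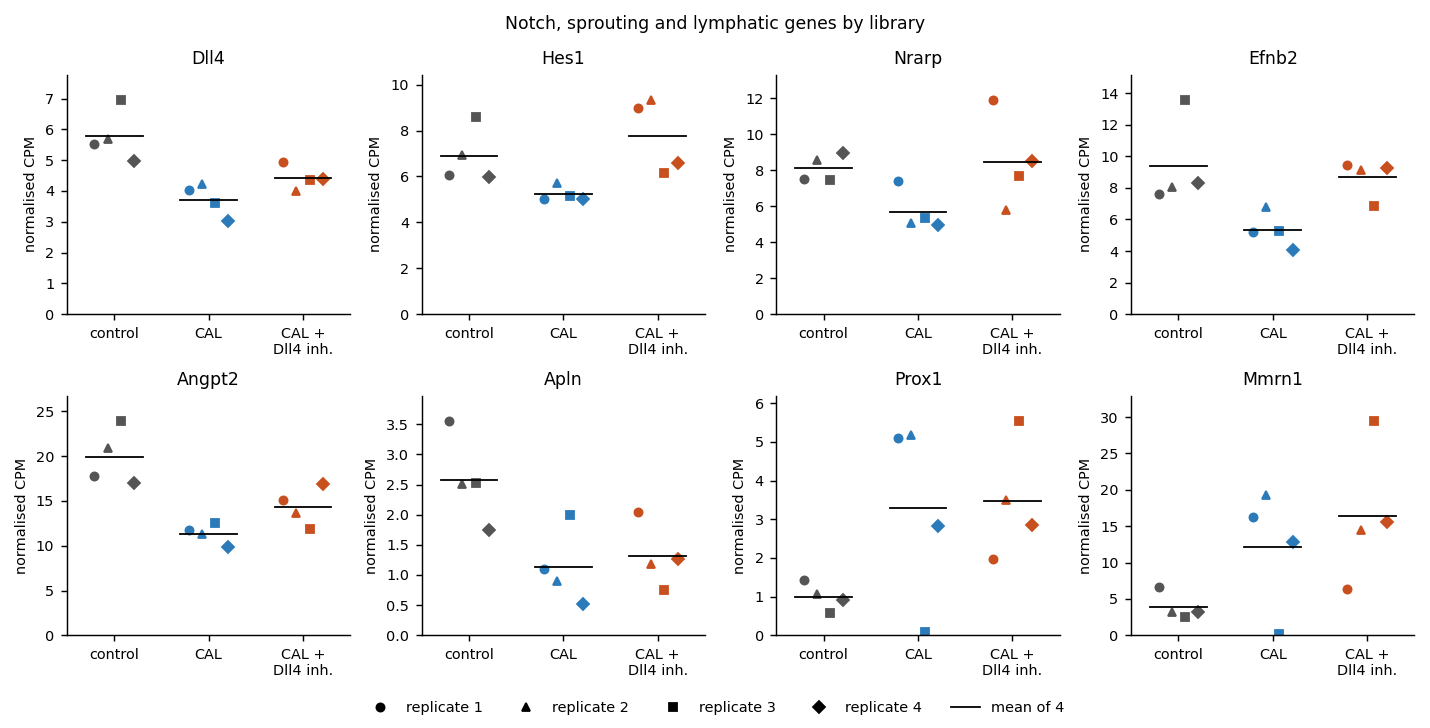
Each point is 1 library, with normalised CPM on the vertical axis for 8 Notch, sprouting and lymphatic genes in the control, CAL and CAL_Dll4i groups; black lines are means of 4 libraries. Dll4 and Angpt2 lie lower in all CAL_Dll4i libraries than in all controls, Hes1, Nrarp and Efnb2 overlap, and Prox1 and Mmrn1 are highest in CAL_Dll4i replicate 3 within that group.

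Genes of sprouting tip cells had mostly lower estimates. Of 13, 11 were lower and 2 higher (median -0.22), with 4 lower at an unadjusted p under 0.05 (3.06% of all genes were): Angpt2, Dll4, Apln and Pgf. Angpt2, an antagonist ligand of the Tie2 receptor that loosens vessels, stood at 17.8, 20.9, 23.9 and 16.99 CPM in control, against 15.1, 13.6, 11.9 and 16.9 CPM in CAL_Dll4i (-0.47 ± 0.13, 1.38-fold lower); the groups did not overlap, though the lowest control and the highest CAL_Dll4i library were close. Mcph1 overlaps it, which leaves part of its counts uncertain. Apln, a peptide hormone of sprouting endothelium, stood at 3.55, 2.504, 2.52 and 1.74 CPM in control, against 2.05, 1.18, 0.759 and 1.27 CPM in CAL_Dll4i (-0.97 ± 0.39). Pgf, placental growth factor, stood at 4.02, 3.16, 2.42 and 3.06 CPM in control, against 2.35, 1.02, 0.759 and 1.94 CPM in CAL_Dll4i (-1.05 ± 0.43) without overlap. Esm1, secreted by tip cells, stood at 2.4, 2.38, 3.84 and 1.71 CPM in control, against 0.7697, 1.43, 0.854 and 2.15 CPM in CAL_Dll4i (-0.99 ± 0.48), with overlap, and Gm41069 overlaps it.

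CAL_Dll4i replicate 3, the library with muscle RNA, held the lowest level of Angpt2, Apln and Pgf in its group. Without it the list median was -0.06 and 2 of the 13 had an unadjusted p under 0.05. Without control replicate 1 or CAL_Dll4i replicate 2 there were also 2, and over the other libraries left out in turn 3 to 5. CAL minus control gave a median of -0.64 for the same list, from the same controls.

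Pan-endothelial markers gave no shared direction. Of 22 pan-endothelial markers 9 had higher and 13 lower estimates (median -0.08; 0.04 without control replicate 3). Pecam1 and Cdh5, the junction proteins of endothelial cells, stood at 133 ± 8.11 CPM in control and 124 ± 13.4 CPM in CAL_Dll4i and at 78.8 ± 6.61 CPM in control and 70.9 ± 7.78 CPM in CAL_Dll4i (mean ± SD, n = 4 each). Vwf, the clotting factor stored in endothelial granules, stood at 58.4, 64.9, 57.6 and 67.5 CPM in control, against 87.6, 67.1, 77.4 and 74.6 CPM in CAL_Dll4i (0.31 ± 0.13), overlapping by 1 pair of libraries. Gpihbp1, which anchors lipoprotein lipase in capillaries, stood at 9.06, 8.36, 10.7 and 7.7 CPM in control, against 6.63, 7.43, 5.68 and 7.68 CPM in CAL_Dll4i (-0.39 ± 0.13), just without overlap. In such bulk samples fewer cells of a type and less RNA per cell cannot be told apart.

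Of 10 VEGF ligands and receptors 3 were higher and 7 lower (median -0.07). Vegfa, the main angiogenic growth factor, stood at 15.9, 19.1, 23.4 and 18.6 CPM in control, against 22.3, 18.7, 16.1 and 18.7 CPM in CAL_Dll4i (-0.02 ± 0.15), and its receptor Kdr at 55.1, 51.3, 58.8 and 49.2 CPM in control, against 53.5, 48.8, 47.4 and 50.6 CPM in CAL_Dll4i (-0.10 ± 0.15). Both overlapped. Of 10 arterial genes 4 were higher and 6 lower (median -0.12, positive without control replicate 3 or 4), and of 13 pericyte and smooth muscle markers 8 were higher and 5 lower (median 0.13). Of 6 angiopoietin and Tie genes 3 were higher and 3 lower (median -0.07, 0.10 without control replicate 3).

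Lymphatic endothelial markers had the largest positive median among the vessel lists. Of 7 tested, 6 had higher estimates (median 1.13) and 2 an unadjusted p under 0.05 (3.86% of all genes were higher at that level), Prox1 and Mmrn1. Prox1, the transcription factor that specifies lymphatic vessels, stood at 1.44, 1.08, 0.585 and 0.912 CPM in control, against 1.96, 3.496, 5.53 and 2.86 CPM in CAL_Dll4i (1.79 ± 0.81, 3.46-fold), without overlap. Mmrn1, a multimerin of lymphatic endothelium and platelets, stood at 6.68, 3.21, 2.48 and 3.24 CPM in control, against 6.29, 14.5, 29.4 and 15.5 CPM in CAL_Dll4i (2.08 ± 0.93); CAL_Dll4i replicate 1 lay below the highest control. Flt4, the VEGF-C receptor, stood at 6.08, 5.92, 4.201 and 5.32 CPM in control, against 5.84, 10.5, 9.17 and 9.42 CPM in CAL_Dll4i (0.70 ± 0.35).

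Of the other members, Lyve1, a hyaluronan receptor also found on macrophages, Reln and the chemokine gene Ccl21a, the latter named after its values were seen, had estimates of 1.13 ± 0.65, 0.95 ± 0.45 and 1.18 ± 1.09. Pdpn was the only member with a lower estimate. The list summed to 114.7 to 154.1 CPM in control and 146.4 to 203.5 CPM in CAL_Dll4i, so the sums overlapped. CAL_Dll4i replicate 3 held the highest level of Prox1, Mmrn1, Lyve1, Reln and Ccl21a in its group. Without it the median was 0.67 and 0 of the 7 had an unadjusted p under 0.05. There were also 0 without control replicate 2, 3 or 4 or CAL_Dll4i replicate 2 or 4, 1 without control replicate 1 and 4 without CAL_Dll4i replicate 1. With a muscle score per library as a covariate the median was 0.38. CAL libraries averaged 3.29 ± 2.41 CPM for Prox1 (median of the list 0.70 against control). The part of neighbouring tissue in this result was not tested.

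**Figure D4:**
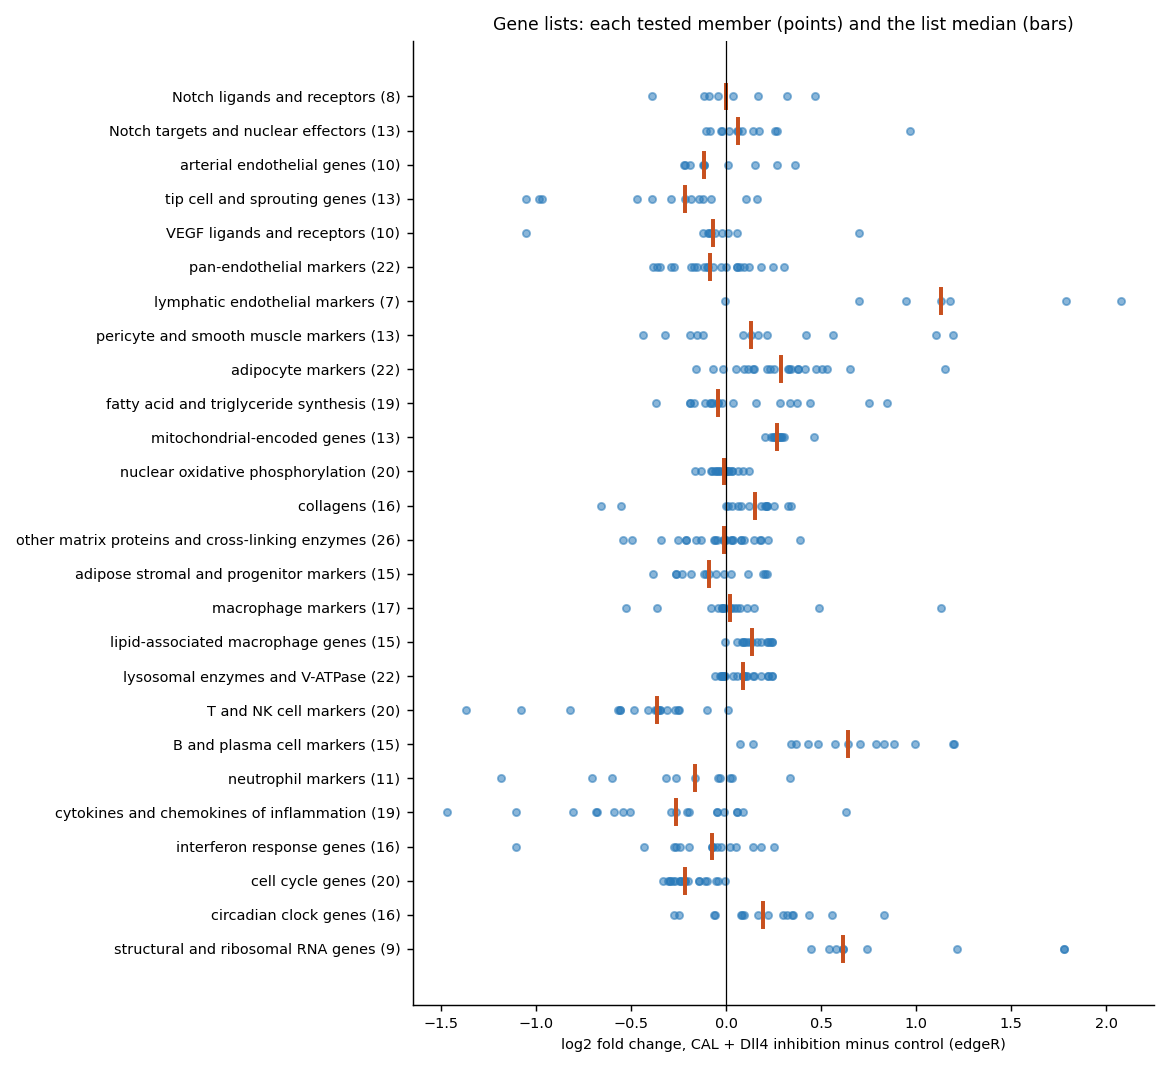
Points are the log2 fold changes (CAL_Dll4i minus control, edgeR, horizontal axis) of the tested members of 26 gene lists, with the number of members in parentheses, and bars are list medians. The 13 mitochondrial-encoded genes lie on the positive side and the 20 cell cycle genes on the negative side, and no single gene passed the adjusted test.

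Adipocyte genes were mostly higher than in control by small amounts. Of 22 markers 19 had higher estimates (median 0.29) and 3 an unadjusted p under 0.05 (3.86% of all genes were higher at that level): Cidea, Lpl and Fabp4. Lpl, the lipase that releases fatty acids from lipoproteins, stood at 831, 823, 931 and 766 CPM in control, against 878, 1016, 979 and 1019 CPM in CAL_Dll4i (0.22 ± 0.06). Fabp4 stood at 442, 375, 507 and 337 CPM in control, against 456, 495, 528 and 498 CPM in CAL_Dll4i (0.25 ± 0.11). Both overlapped at control replicate 3, the control with the most adipocyte RNA. Cidea, a lipid droplet protein of brown and beige fat, stood at 0.303 ± 0.0442 CPM in control and 0.676 ± 0.212 CPM in CAL_Dll4i (1.15 ± 0.27) without overlap, at a low level.

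The defining hormones and droplet genes varied widely among controls. Adipoq, adiponectin, stood at 87, 62.5, 117 and 35.8 CPM in control, against 73.7, 112, 114 and 80.5 CPM in CAL_Dll4i (0.33 ± 0.31), and Lep, leptin, at 9.04, 4.25, 12.1 and 1.75 CPM in control, against 4.72, 14.2, 11.7 and 7.09 CPM in CAL_Dll4i (0.47 ± 0.55). Plin1, which coats lipid droplets, stood at 46.1, 26.5, 56.3 and 13.03 CPM in control, against 32.97, 39.9, 40.2 and 26.96 CPM in CAL_Dll4i (-0.02 ± 0.38), and Pparg, the master regulator of fat cells, at 63.3, 55.3, 79.8 and 44.4 CPM in control, against 55.4, 67.2, 73.7 and 55.6 CPM in CAL_Dll4i (0.05 ± 0.19). Control replicate 4 was lowest and control replicate 3 highest among the controls in each of these 4 genes, and the CAL_Dll4i libraries lay within or near that range. The list median was 0.11 without control replicate 4 and 0.57, with 7 of 22 at an unadjusted p under 0.05, without control replicate 3. For CAL minus control it was 0.87, from the same control libraries.

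Lipid synthesis genes had no shared direction: 8 of 19 were higher and 11 lower (median -0.04, of either sign over the libraries left out in turn), where CAL minus control gave 0.43. Elovl6, which elongates fatty acids, stood at 4.78, 4.85, 6.44 and 4.502 CPM in control, against 3.71, 4.11, 5.06 and 3.02 CPM in CAL_Dll4i (-0.37 ± 0.17), and Mlxipl, the carbohydrate-sensing factor ChREBP, at 4.07, 1.72, 4.16 and 1.304 CPM in control, against 4.23, 5.04, 6.99 and 3.99 CPM in CAL_Dll4i (0.85 ± 0.39). Of 10 thermogenic genes 7 were higher (median 0.18, 0.00 without control replicate 4) and 3 of those had an unadjusted p under 0.05, Cidea, Ppargc1a and Cox7a1, with 1 lower gene at that level. The 3 became 1 without control replicate 2, 3 or 4 or CAL_Dll4i replicate 3 and 2 without control replicate 1. Ppargc1a, a coactivator of mitochondrial genes, and Cox7a1, a muscle and brown fat subunit, were highest in CAL_Dll4i replicate 3, at 7.38 and 3.92 CPM, beside its muscle RNA, and at 2.72 to 3.91 and 0.347 to 0.780 CPM in the other CAL_Dll4i libraries.

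Collagen genes had mostly higher estimates. Of 16, 13 were higher and 3 lower (median 0.15, 0.05 without control replicate 1), and CAL minus control gave a median of -0.21. At an unadjusted p under 0.05 there were 3 of the higher and 2 of the lower genes (3.86% and 3.06% of all genes). The 3 became 1 without control replicate 1 or CAL_Dll4i replicate 2 or 4 and 5 without control replicate 3. Col1a1, the main fibrillar collagen, stood at 1557, 1818, 1916 and 1853 CPM in control, against 2106, 2224, 2106 and 2085 CPM in CAL_Dll4i (0.25 ± 0.11) without overlap. Col15a1, of basement membrane zones, stood at 241, 296, 328 and 271 CPM in control, against 380, 377, 325 and 359 CPM in CAL_Dll4i (0.34 ± 0.08), overlapping in 1 pair of libraries. On the lower side, Col8a2, a short-chain collagen that is not in the list, stood at 4.04, 2.76, 6.69 and 2.86 CPM in control, against 1.34, 2.21, 1.53 and 2.11 CPM in CAL_Dll4i (-1.19 ± 0.27, DESeq2 adjusted p = 0.0244), and its partner chain Col8a1 at 57.7, 69.9, 105 and 83.5 CPM in control, against 44.1, 61.5, 37.2 and 57.2 CPM in CAL_Dll4i (-0.66 ± 0.28). Col14a1, a fibril-associated collagen, stood at 421, 362, 590.4 and 460.4 CPM in control, against 270.1, 344, 310.1 and 325 CPM in CAL_Dll4i (-0.55 ± 0.15) without overlap. Control replicate 3 was the highest control in these 3, and CAL averaged 1.86 ± 0.1745, 36.4 ± 13.6 and 275 ± 41.4 CPM.

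Other matrix genes split evenly, 12 of 26 higher and 14 lower (median -0.01). Fn1, fibronectin, stood at 2023, 2045, 2449 and 2253 CPM in control, against 2064, 2077, 1662 and 2061 CPM in CAL_Dll4i (-0.16 ± 0.11), with CAL_Dll4i replicate 3 lowest. Tnxb, a tenascin, and Dcn, the proteoglycan decorin, had higher estimates (0.39 ± 0.16 and 0.18 ± 0.08) and the fibrillin gene Fbn2 a lower one (-0.54 ± 0.23), each at an unadjusted p under 0.05 and each overlapping. Tfpi2, a secreted protease inhibitor, stood at 13.3, 17.6, 22.5 and 16.97 CPM in control, against 12.5, 12.6, 10.2 and 13.2 CPM in CAL_Dll4i (-0.54 ± 0.20) without overlap, in a list of 18 proteases and inhibitors with 9 higher and 9 lower. Stromal and progenitor markers were higher in 5 of 15 cases (median -0.09, 0.06 without control replicate 3), and Pdgfra, the receptor that marks them, stood at 213 ± 17.8 CPM in control and 245 ± 26.4 CPM in CAL_Dll4i (0.21 ± 0.09).

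T and natural killer cell markers had lower estimates in 19 of 20 cases (median -0.36). At an unadjusted p under 0.05, 3 were lower (3.06% of all genes were): Gzma, Gzmb and Eomes. Gzmb, granzyme B, stood at 12.3, 12.8, 2.84 and 9.22 CPM in control, against 6.63, 3.98, 2.94 and 4.02 CPM in CAL_Dll4i (-1.08 ± 0.47), and Eomes, a transcription factor of killer cells, at 19.8, 12.6, 9.48 and 12.1 CPM in control, against 11.3, 6.32, 10.8 and 8.23 CPM in CAL_Dll4i (-0.56 ± 0.25). Both overlapped, and control replicate 3 held the least of all 3 genes among controls. The summed level of the list was 745, 615, 419 and 683 CPM in control and 542, 393, 648 and 496 CPM in CAL_Dll4i, so the groups overlapped. Over the 8 libraries left out in turn the median ran from -0.60 to -0.16 and the number at an unadjusted p under 0.05 from 1 (without control replicate 1, 2 or 4 or CAL_Dll4i replicate 2 or 4) to 7 (without control replicate 3).

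Related receptor genes were grouped after seeing their values. Of 27 killer cell lectin-like receptor genes 26 had lower estimates (median -0.52), 3 at an unadjusted p under 0.05 beside 3.06% of all genes; this count was 10 without control replicate 3, 2 without control replicate 1 or 2 or CAL_Dll4i replicate 2 or 3, and 3 without the rest. Their sum was 487, 397, 251 and 309 CPM in control and 271, 205, 251 and 278 CPM in CAL_Dll4i. Of 153 T cell receptor segments 126 were lower (median -0.35), 6 of them (3.92%) at an unadjusted p under 0.05 beside 3.06% of all genes. That count was 26 without control replicate 3, 20 without CAL_Dll4i replicate 3, 1 to 3 without control replicate 1 or 4 or CAL_Dll4i replicate 1, 2 or 4, and 6 without control replicate 2, and the median ran from -0.65 to -0.15. Members of these families share reads, so single rows are uncertain.

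All 15 markers of B and plasma cells had higher estimates (median 0.64), with 0 at an unadjusted p under 0.05 by edgeR and 0 called by DESeq2. Ms4a1, the B cell surface protein CD20, stood at 7.32, 7.74, 1.73 and 22.4 CPM in control, against 19.8, 8.84, 48.2 and 12.9 CPM in CAL_Dll4i (1.19 ± 0.77), and Ighm, the IgM heavy chain, at 326, 545, 281 and 572 CPM in control, against 765, 403, 1028 and 613 CPM in CAL_Dll4i (0.70 ± 0.48). CAL_Dll4i replicate 3, with muscle RNA, was highest for both, and without it 11 of 15 were higher and the median was 0.17. Without control replicate 4, the control with the most B cell RNA, the median was 1.42 and 8 of 15 had an unadjusted p under 0.05. Immunoglobulin variable segments, grouped after seeing their values, were higher for 60 of 79 kappa genes (median 0.74) and 57 of 93 heavy chain genes (median 0.35, -0.10 without CAL_Dll4i replicate 3). At an unadjusted p under 0.05 by edgeR, 11 kappa and 10 heavy chain genes were higher, beside 3.86% of all genes. On the lower side there was 1 of each at that level. Over the libraries left out in turn the higher counts ran from 4 to 17 and from 2 to 20. DESeq2 called Igkv12-44 (DESeq2 adjusted p = 0.0052) and Ighv2-5 (DESeq2 adjusted p = 0.0439) higher, the former without overlap.

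Macrophage markers stood near control. Of 17, 9 were higher and 8 lower (median 0.02, -0.01 without CAL_Dll4i replicate 4), and Adgre1 (F4/80) and Mrc1 (CD206) stood at 480.1, 478, 484 and 466 CPM in control, against 441, 486, 492 and 521 CPM in CAL_Dll4i and at 665 ± 64.1 CPM in control and 674 ± 27.8 CPM in CAL_Dll4i (mean ± SD, n = 4 each). Genes of lipid-associated macrophages, which take up lipid from dying fat cells, had higher estimates in 14 of 15 cases (median 0.13). At an unadjusted p under 0.05, 4 were higher, beside 3.86% of all genes. This count of 4 was 2 without control replicate 1 or 4 or CAL_Dll4i replicate 2 or 4 and 3 to 6 without the others, with 6 without control replicate 3. Gpnmb, a glycoprotein of such cells, stood at 1147, 1391, 1381 and 1293 CPM in control, against 1364, 1618, 1562 and 1613 CPM in CAL_Dll4i (0.24 ± 0.08), and Lgals3, galectin 3, at 404, 446, 497 and 428 CPM in control, against 479.7, 516, 466 and 529 CPM in CAL_Dll4i (0.16 ± 0.07). Lpl, given above, belongs to this list too.

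Of 22 lysosomal genes, 5 of which are also in the lipid-associated list, 15 were higher (median 0.09) with 5 at an unadjusted p under 0.05, beside 3.86% of all genes. That count was 2 or 3 without control replicate 1 or 4 or CAL_Dll4i replicate 2, 3 or 4 and 4 to 7 without the others. Atp6v0a1, a subunit of the proton pump, stood at 374, 371, 366 and 358 CPM in control, against 412, 430.1, 489 and 406 CPM in CAL_Dll4i (0.24 ± 0.06) without overlap, and CAL averaged 488 ± 29.3 CPM. Ctsb, the protease cathepsin B, stood at 985, 1147, 1197 and 1100 CPM in control, against 1259, 1298, 1186 and 1417 CPM in CAL_Dll4i (0.22 ± 0.08). DESeq2 called 2 lysosomal genes singled out after their values were seen. Psap, the precursor of the saposins, stood at 1588, 1606, 1519 and 1594 CPM in control, against 1930, 1775, 1780 and 1886 CPM in CAL_Dll4i (0.23 ± 0.05, DESeq2 adjusted p = 0.0181), and Grn, progranulin, at 541, 544, 519.7 and 549.7 CPM in control, against 616, 587, 581 and 596 CPM in CAL_Dll4i (0.14 ± 0.04, DESeq2 adjusted p = 0.032). Neither overlapped.

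Inflammatory cytokines and chemokines were lower in 15 of 19 cases (median -0.26; 0.00 without control replicate 3 and -0.69 without CAL_Dll4i replicate 1). Cxcl10, an interferon-induced chemokine for T cells, stood at 43.95, 35.8, 13.9 and 23.04 CPM in control, against 21.6, 6.95, 9.83 and 15.8 CPM in CAL_Dll4i (-1.11 ± 0.50), Cxcl9, a related chemokine, at 165 ± 61.3 CPM in control and 109 ± 27.5 CPM in CAL_Dll4i, and Ccl7, which draws monocytes, at 18.2 ± 7.26 CPM in control and 10.4 ± 3.53 CPM in CAL_Dll4i (mean ± SD, n = 4 each). All 3 overlapped. Interferon response genes were lower in 11 of 16 cases (median -0.07, of either sign over the libraries left out), neutrophil markers in 8 of 11 (median -0.16, 0.13 without control replicate 4, -0.39 without control replicate 1, and -1.10 for CAL minus control) and dendritic cell markers in 7 of 9 (median -0.33). Mmp8, neutrophil collagenase, stood at 34.4, 27.6, 30.5 and 56.3 CPM in control, against 22.4, 24.5, 15.2 and 28.9 CPM in CAL_Dll4i (-0.71 ± 0.36). Of 10 mast cell markers 8 were higher (median 0.22, -0.26 without CAL_Dll4i replicate 1) and of 15 complement genes 10 (median 0.07).

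Cell cycle genes had lower estimates in all 20 cases (median -0.22), 2 of them at an unadjusted p under 0.05, beside 3.06% of all genes. Ccnb2, a mitotic cyclin, stood at 12.1, 12.9, 11.2 and 15.3 CPM in control, against 12.2, 9.75, 8.58 and 10.4 CPM in CAL_Dll4i (-0.33 ± 0.15), and Tyms, thymidylate synthase, at 18.5, 20.4, 19.9 and 21.6 CPM in control, against 19.8, 15.2, 15.1 and 16.7 CPM in CAL_Dll4i (-0.27 ± 0.12). Both overlapped, with CAL_Dll4i replicate 1 the highest of its group. The number at an unadjusted p under 0.05 was 0 without control replicate 2 or 4 or CAL_Dll4i replicate 2, 3 or 4, 7 without control replicate 3, 11 without CAL_Dll4i replicate 1 and 12 with the 18S share as a covariate.

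Circadian clock genes were higher in 12 of 16 cases (median 0.19), with 3 at an unadjusted p under 0.05, beside 3.86% of all genes. Without control replicate 4 there were 6. Per2, a core clock repressor, stood at 15.8, 13.3, 15.99 and 17.5 CPM in control, against 21.9, 26.2, 19.3 and 24.7 CPM in CAL_Dll4i (0.56 ± 0.19) without overlap. The output factors Tef and Hlf stood at 20.7, 17.8, 20.9 and 23.9 CPM in control, against 26.02, 28.3, 24.9 and 23.2 CPM in CAL_Dll4i (0.30 ± 0.10) and at 0.8097 ± 0.211 CPM in control and 1.45 ± 0.374 CPM in CAL_Dll4i (0.83 ± 0.28). The labels give no time of day of collection.

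Growth factors that stromal cells secrete showed no shared direction, 11 of 19 higher and 8 lower (median 0.04). Pdgfa stood at 4.31, 6.48, 6.47 and 4.94 CPM in control, against 8.32, 7.26, 6.53 and 7.61 CPM in CAL_Dll4i (0.42 ± 0.15) and Fgf10, a factor for fat cell precursors, at 3.45, 1.94, 2.31 and 1.45 CPM in control, against 3.09, 3.62, 5.04 and 3.4 CPM in CAL_Dll4i (0.73 ± 0.29). Pdgfd stood at 17, 14.6, 19.7 and 16.4 CPM in control, against 10.9, 14.2, 13.6 and 13.4 CPM in CAL_Dll4i (-0.38 ± 0.14). Pdgfa was higher and Pdgfd lower without overlap, and Fgf10 overlapped. CAL averaged 6.91 ± 2.22 CPM for Fgf10, above both groups. Hypoxia and glycolysis genes were lower in 15 of 20 cases (median -0.06), with Epas1, the oxygen-sensing factor HIF-2 alpha, at 79.1, 100.3, 107 and 102 CPM in control, against 133, 118, 121 and 110.3 CPM in CAL_Dll4i (0.31 ± 0.12) on the higher side and the glycolytic enzyme gene Pfkp on the lower side (-0.18 ± 0.07). Of 19 immediate early genes 15 were lower (median -0.04, positive without control replicate 3 or CAL_Dll4i replicate 3), and of 5 TAM receptor and ligand genes 4 were higher (median 0.12).

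Muscle and keratinocyte genes were highest in 1 CAL_Dll4i library each. All 11 muscle genes had higher estimates, 8 at an unadjusted p under 0.05 (median 3.86). Without CAL_Dll4i replicate 3 the median was 0.62 with 0 genes at that level, and there were 0 or 1 without any one control and 10 without any one of the other CAL_Dll4i libraries. Acta1, skeletal muscle actin, stood at 1.67, 1.33, 0.435 and 0.393 CPM in control, against 2.91, 1.67, 127 and 1.91 CPM in CAL_Dll4i, and Mylpf, a fast muscle myosin light chain, at 0.355, 0.498, 0.15 and 0.365 CPM in control, against 1.75, 0.7402, 91.5 and 0.353 CPM in CAL_Dll4i. Both overlapped, but 3 of the 11 lay higher without overlap (2.41% of all genes did). Of these, Tnnt3 stood at 1.656, 1.156, 0.7201 and 0.5751 CPM in control, against 3.954, 2.205, 97.99 and 2.105 CPM in CAL_Dll4i. Keratinocyte genes were higher in 9 of 9 cases (median 1.23; 0.12 without CAL_Dll4i replicate 1), and Krt79 stood at 2.86, 1.85, 2.39 and 1.45 CPM in control, against 17.96, 2.82, 1.122 and 3.74 CPM in CAL_Dll4i. Mammary and glandular epithelial genes were higher in 9 of 10 cases (median 0.43; -0.39 without CAL_Dll4i replicate 4), mesothelial genes in 3 of 3 (median 0.47) and Schwann cell genes in 7 of 10 (median 0.05), with Cdh19, a cadherin of Schwann cells, among those on the lower side (-0.66 ± 0.27).

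Red cell genes were lower in all 7 cases (median -1.03), 3 of them at an unadjusted p under 0.05, among them Slc4a1 and Alas2; over the libraries left out in turn that number ran from 1 (without control replicate 1 or 3 or CAL_Dll4i replicate 1 or 4) to 5 and 6 (without control replicate 2 and 4). Alas2, the first enzyme of heme synthesis in red cell precursors, stood at 54.7, 6.65, 85.02 and 6.35 CPM in control, against 5.74, 5.24, 10.1 and 7.08 CPM in CAL_Dll4i, and Slc4a1, the red cell anion exchanger, at 4.65, 0.369, 4.17 and 0.323 CPM in control, against 0.347, 0.598, 0.4901 and 0.294 CPM in CAL_Dll4i. In both genes control replicates 1 and 3 were high and control replicates 2 and 4 lay near the CAL_Dll4i libraries.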

How the data were processed

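RNA of 12 graft libraries was prepared with an exome-capture RNA kit after Trizol extraction, per the labels' protocols. HISAT2, StringTie and the mm10 build are named in the submitters' processing notes, without versions. The authors deposited 1 table of estimated counts (whole numbers, smallest value 1), FPKM and TPM per gene. The estimated counts were tested; the deposited FPKM and TPM values, scaled by gene length and depth by the authors, served only as checks. A count of 1 can stand for no reads: 271 of the 1219 values equal to 1 corresponded to under 0.5 reads from FPKM. The strand setting of the counting is not known here.

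In R 4.3.3, edgeR 4.0.16 (filterByExpr, TMM, robust quasi-likelihood fit, 1 coefficient per group over all 12 libraries) compared CAL_Dll4i with control, with Benjamini-Hochberg adjustment over 18551 genes and a threshold of 0.05. SE was the estimate divided by the square root of F. CPM were scaled by TMM. DESeq2 1.42.0, voom in limma 3.58.1, other scalings and filters, covariates and each library left out were alternatives, and the steps were tested on simulated data. Coordinates are from RefSeq on GRCm38.p6 (18509 genes matched), and figures were drawn in Python 3.11.15.

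Genes named were the 10 with the smallest p in each direction at a mean of at least 1 CPM in either group (2 predicted genes passed over), fixed genes of the subject, and up to 3 members of smallest p in each of 43 lists. Ckm was not analysed here, and some items that the rule names are not reported. Groups, members and lists were chosen with earlier results of these data known; 5 lists and the genes so marked were added after seeing values.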

Additional observations from a re-analysis of the deposited data

Results flagged for a closer look

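Of 218 groups of 4 libraries examined for the named genes, 16 held 1 library farther from the other 3 than Dixon's limit of 0.829 allows. Chance marks about 1 group in 20. All values are CPM.

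CAL_Dll4i replicate 3, the library with muscle RNA, accounted for 7 of them. Acta1 stood at 126.6 there (1.669 to 2.913 in the others of its group), Mylpf at 91.54 (0.3533 to 1.751) and Cox7a1 at 3.921 (0.3465 to 0.7801), 3 genes expressed in skeletal muscle. Rarb stood at 2.15 (1.433 to 1.545). On the low side were Efnb2 at 6.83 (9.134 to 9.417), Fn1 at 1662 (2061 to 2077) and Pdk3 at 43.97 (47.76 to 48.08).

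In the remaining CAL_Dll4i libraries, Krt79 stood at 17.96 in replicate 1 (1.122 to 3.739), the library with the most keratinocyte RNA, and ND6 at 54.89 in the same library (66.03 to 67.68). Col1a1 stood at 2224 in replicate 2 (2085 to 2106).

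Among controls, replicate 3 stood apart for Efnb2 at 13.55 (7.588 to 8.317) and Tnxb at 369.8 (237.2 to 251.4). Replicate 1 stood apart for Notch1 at 143.3 (124.1 to 126.3) and Cidea at 0.2366 (0.321 to 0.33), replicate 2 for Rarb at 0.5939 (0.8851 to 0.9397) and replicate 4 for Notch4 at 10.46 (12.59 to 12.89).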

How the results depend on the processing

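DESeq2 called 50 genes higher and 11 lower where edgeR called 0 and 0; edgeR also called 0 in each direction under every other scaling, filter and covariate run and with each of the 8 libraries left out. At an unadjusted p under 0.05, voom gave 1161 higher and 1139 lower, a muscle score as covariate 412 and 284, upper-quartile scaling 870 and 436, and the libraries left out in turn 546 to 815 higher and 396 to 673 lower, against 716 and 568. With the replicate number as a block, 0 genes were called and 592 higher and 521 lower had an unadjusted p under 0.05. Deviations of same-numbered libraries correlated at -0.0659, -0.0377, -0.1902 and 0.1419, and no library correlated best with its own number. With 4 libraries a group this cannot exclude a shared animal or batch, and the labels do not say what a number shares. Estimates with the opposite sign (log2) were those of Jag1 (voom 0.097, muscle score 0.001, without the 3 libraries with muscle RNA 0.098; libraries left out -0.119 to 0.112), Nrarp (voom -0.043, 18S share as covariate -0.126; -0.15 to 0.207), Efnb2 (voom 0.082; -0.204 to 0.117), Vegfa (voom 0.011, muscle score 0.095, without the 3 libraries 0.048; -0.112 to 0.084), Kdr (18S share 0.014), Plin1 (voom 0.303, replicate block 0.073, 18S share 0.229; -0.295 to 0.296), Pparg (without the 3 libraries -0.031; -0.071 to 0.213), Adgre1 (-0.011 to 0.066) and Mrc1 (without the 3 libraries -0.006; -0.02 to 0.085). The cause was not tested. The 3 libraries left out together, the 18S covariate and the removal of structural RNA genes were chosen after seeing the data. With 4 libraries a group and a common biological coefficient of variation of 0.2371, small differences in variable genes were not detectable.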
